A study of Mus musculus with 8 samples.

Results

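Expression of 10 genes of bile acid synthesis and transport was followed through 4 mouse liver libraries, with 4 colon libraries from the same study for context. The genes were chosen by name with earlier results of these data known, so counts among them are not independent of those results. They are the NCBI gene entries of Cyp7a1, Cyp8b1, Cyp7b1, Cyp27a1, Slc10a1, Abcb11, Nr1h4, Nr0b2, Baat and Slc27a5. All 10 were found among the 45777 genes of the deposited table. The groups were control mice, mice of a non-alcoholic steatohepatitis (NASH) model, and mice of that model that received bovine colostrum extracellular vesicles (EVs) at a low dose or at a high dose. Each group and tissue had 1 library, so every difference below is between 2 libraries, carries no error and was not tested, and the spread between animals is unknown. The sources used here do not state how NASH was produced, the EV amounts, strain, sex, age or any pooling of animals, and the labels name the EV groups by dose alone, their NASH background coming from the design text. Levels are in FPKM (fragments scaled by transcript length and by library size), which allows genes to be compared within a library, and the depth is unknown.

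Bile acids are made from cholesterol in hepatocytes. The classical route opens with CYP7A1, the rate-limiting 7-alpha-hydroxylase, and CYP8B1 adds the 12-alpha-hydroxyl group that makes cholic acid. The alternative route runs through the mitochondrial sterol 27-hydroxylase CYP27A1 and the oxysterol 7-alpha-hydroxylase CYP7B1. SLC27A5 activates bile acids with coenzyme A and BAAT joins them to taurine or glycine. SLC10A1 (NTCP) takes conjugated bile acids up from blood and ABCB11 (BSEP) exports them into bile. NR1H4 (FXR) is the nuclear receptor that senses bile acids, and NR0B2 (SHP), one of its targets, is a corepressor of bile acid synthesis genes.

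The liver libraries were of the labelled tissue. The albumin gene Alb lay between 15525 and 19466 FPKM in them, and the colon transcription factor gene Cdx2 was listed at 0. Between 10469 and 12420 genes reached 1 FPKM per liver library, and 12866 reached it in at least 1 of the 4. Over these genes the median log2 ratio of NASH over control was 0.55, against 0.27 among the 2273 genes with a mean of 20 FPKM or more, the range in which 9 of the 10 genes lie. Log2 ratios are of FPKM + 1 and relative to the median gene unless called as deposited, and fold values are plain ratios of deposited FPKM.

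The NASH liver held more Cyp7a1 RNA and less RNA for 5 other members, Cyp7b1, Cyp8b1, Slc10a1, Slc27a5 and Nr0b2, than the control liver. Relative to the median gene 8 of the 10 were at least 2-fold lower, where 7.66% of all 12866 genes were, and 1 was at least 2-fold higher, where 7.21% were. As deposited, 5 were lower (3.23% of all genes) and 1 higher (20.5% of all genes). Among the genes of 20 FPKM or more and relative to their own median, 4 of 9 members were lower (12.8% of those genes) and 1 higher (11.9%). Cyp27a1, Abcb11 and Baat made up the difference, close to 2-fold on the relative scale and inside it as deposited. The median log2 ratio of the 10 was -1.52 relative to the median gene, and -0.96 as deposited beside 0.55 for all genes. Their summed level was 1306 FPKM in control, 614 in NASH, 724 with the low EV dose and 820.3 with the high dose. The sum over all genes was lower as well, at 1020486 FPKM in control and 780949, 864840 and 848143 in the NASH, low dose and high dose livers. As a share of it the 10 genes made up 0.128%, 0.0787%, 0.0837% and 0.0967%. In whole tissue fewer hepatocytes and less RNA per hepatocyte cannot be told apart.

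RefSeq promoter sequences of GRCm38.p6 (mm10) were matched for 6 of the 10 genes, namely Cyp27a1, Abcb11, Nr0b2, Cyp8b1, Nr1h4 and Slc10a1. Shown here are the 250 bases before the annotated start of Cyp8b1 and Nr0b2, whose RNA was lower in the NASH liver, and of Abcb11. Abcb11, a textbook target of FXR, was lower too. It was past 2-fold relative to the median gene (log2 -1.09) and inside it as deposited (-0.54). Cyp8b1 is at chr9:121916306-121916555 on the minus strand, Nr0b2 at chr4:133553126-133553375 on the plus strand and Abcb11 at chr2:69342617-69342866 on the minus strand. Each is printed 5′ to 3′ in the direction of the gene. Capitals mark CAAAGTCCA, a word bound by HNF4, and TATAAA in Cyp8b1. In Nr0b2 they mark the LRH-1 core TCAAGG, the E box CACGTG and TATAAA, and in Abcb11 an inverted repeat of GGNCA and TGNCC with 1 base between them, a permissive form of the element bound by FXR with its partner RXR.
Cyp8b1: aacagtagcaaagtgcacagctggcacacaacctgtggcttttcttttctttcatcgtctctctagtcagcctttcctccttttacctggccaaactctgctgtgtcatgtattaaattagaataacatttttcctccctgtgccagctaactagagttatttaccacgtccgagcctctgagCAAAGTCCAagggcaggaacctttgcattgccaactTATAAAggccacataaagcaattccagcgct
Nr0b2: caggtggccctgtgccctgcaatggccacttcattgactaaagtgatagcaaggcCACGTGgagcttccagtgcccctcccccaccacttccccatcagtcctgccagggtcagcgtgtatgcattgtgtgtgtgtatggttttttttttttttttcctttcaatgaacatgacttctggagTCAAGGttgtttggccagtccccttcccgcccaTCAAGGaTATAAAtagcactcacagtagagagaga
Abcb11: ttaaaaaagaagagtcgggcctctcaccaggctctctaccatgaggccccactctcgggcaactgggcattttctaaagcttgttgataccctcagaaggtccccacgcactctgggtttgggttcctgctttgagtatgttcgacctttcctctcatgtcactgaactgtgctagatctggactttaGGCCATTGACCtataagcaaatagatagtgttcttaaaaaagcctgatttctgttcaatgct
Both strands were searched in all 32851 promoter windows of the table. CAAAGTCCA was found in 0.384% of them, and in Cyp8b1 it ran from 67 to 59 bases before the start. The inverted repeat was found in 0.575%, and in Abcb11 it ran from 62 to 52 bases before the start, overlapping a receptor core TGACCT, a word held by 14% of windows. TCAAGG was found in 12.5% and stood at 68 and at 35 bases before the start of Nr0b2. TATAAA was found in 12.4%, and it began 31 bases before the start of Cyp8b1 and 28 before that of Nr0b2. CACGTG was found in 6.02%. The windows of Cyp27a1, Nr1h4 and Slc10a1 were searched too but are not printed. Of the 6 matched genes only Cyp8b1 held CAAAGTCCA and only Abcb11 the inverted repeat. Slc10a1, whose RNA was also lower in NASH, held neither, and TGACCT stood in Slc10a1 and Nr1h4 as well. The inverted repeat had no match in the 250 bases of Nr0b2, also an FXR target, and sequence farther upstream was not searched. These matches describe letters only, and no binding was measured.

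**Figure D1:**
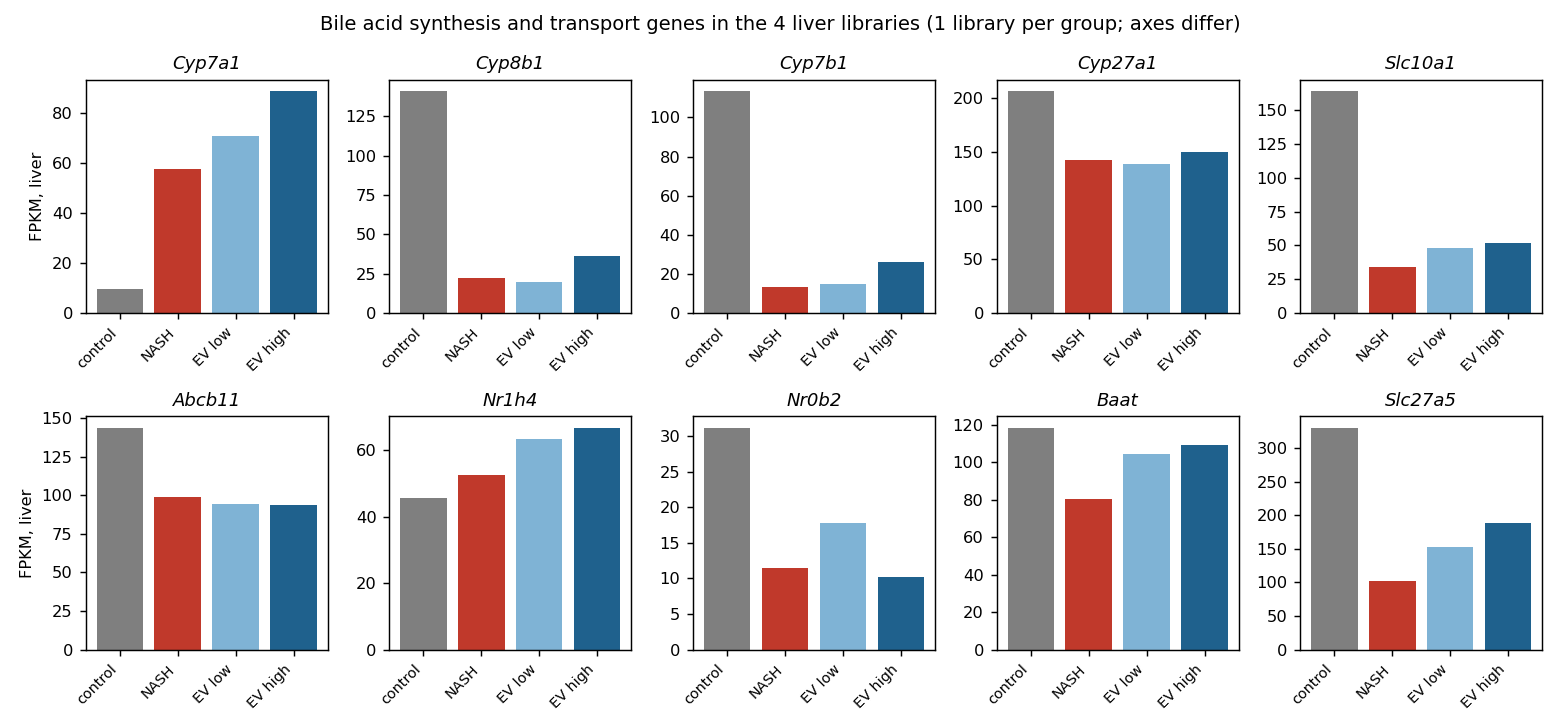
FPKM of the 10 genes in each of the 4 liver libraries, 1 bar per library and a separate axis from 0 for each gene. Cyp7a1 was lowest in control (9.52) and highest with the high EV dose (88.9), whereas Cyp8b1, Cyp7b1, Slc10a1 and Slc27a5 were highest in control.

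Cyp7a1 (NCBI gene 13122, chromosome 4, 6265612 to 6275632) was at 9.52 FPKM in the control liver, 57.8 in NASH, 70.7 with the low EV dose and 88.9 with the high dose. Control was the low library, and the other 3 lay 6.07-fold, 7.42-fold and 9.34-fold above it in that order. The log2 ratio of NASH over control was 1.93, rank 170 from the highest of 12866 genes. Both EV libraries lay above NASH, at log2 0.42 for the low dose and 0.75 for the high dose. In the control library Cyp7a1 was the lowest of the 10 genes, and in each of the other 3 it held place 5 from the highest.

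Cyp7a1 is a rhythmic gene whose transcription is known to be driven by the clock output factor DBP. Clock genes also set control apart. Of 15 kept in liver 7 were 2-fold higher and 2 lower in NASH than in control, where 7.21% and 7.66% of all genes were. As deposited 7 were higher and 1 lower, where 20.5% and 3.23% of all genes were. Dbp was at 1.60 FPKM in the control liver and at 38.1, 28.5 and 29.3 in the NASH, low dose and high dose libraries. Arntl (Bmal1), which peaks at the opposite phase, was at 5.53 in control and at 0.816, 0.213 and 0.184 in the others. The colon libraries split alike, with Dbp at 1.67 in control and between 46.1 and 51.5 in the other 3. As deposited, of 16 clock genes kept in colon 10 were 2-fold higher and 1 lower in NASH than in control, where 2.43% and 1.97% of all genes were. The time of collection is not stated. This split lies between control and the other 3 libraries, as does every comparison with control in either tissue. The part of clock phase in the levels of Cyp7a1, the other members and the colon genes was not tested.

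Cyp8b1 (NCBI gene 13124, chromosome 9, 121914356 to 121916305) was at 141 FPKM in control, 22.2 in NASH, 19.6 with the low EV dose and 35.8 with the high dose. Control was thus 6.35-fold above NASH (log2 of NASH over control -3.17, rank 60 from the lowest of 12866). The low dose library lay next to NASH (log2 -0.04) and the high dose library above it (log2 0.80). High over low dose stood at 0.84, rank 60 from the highest of all genes in that comparison.

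Cyp7b1 (NCBI gene 13123, chromosome 3, 18071944 to 18243890) had the lowest ratio of the 10. It was at 114 FPKM in control, 13.1 in NASH, 14.8 with the low EV dose and 26.2 with the high dose, so that control lay 8.70-fold above NASH (log2 -3.58, rank 44 from the lowest). The high dose library was 2.01-fold above NASH (log2 1.09, or 0.95 as deposited), and the low dose library stood at log2 0.31. Cyp7b1 is a male-biased gene of mouse liver, and a list of 11 other male-biased genes was lower in NASH than in control in 11 of 11 (median -4.18), or at least 2-fold lower in 9 of 11 as deposited (median -3.62). Of those 11, 2 were 2-fold higher with the low dose and 7 with the high dose than in NASH, or 2 and 5 as deposited. Over all genes 7.66% were 2-fold lower in NASH than in control (3.23% as deposited). With the low and high dose 0.443% and 0.816% of all genes were higher than in NASH, or 0.311% and 0.552% as deposited.

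Cyp27a1 (NCBI gene 104086, chromosome 1, 74713148 to 74737897) varied least among the 4 hydroxylases. It was at 207 FPKM in control, 142 in NASH, 139 with the low EV dose and 150.4 with the high dose. Control was the highest library and the other 3 lay within a narrow range. NASH over control was -1.09 relative to the median gene, -0.54 as deposited and -0.81 relative to genes of 20 FPKM or more.

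Ratios between genes within a library do not depend on its scaling. The FPKM of Cyp8b1 over Cyp7a1 was 14.8 in the control liver and 0.384, 0.277 and 0.403 in the NASH, low dose and high dose livers, so the order of these genes was turned in the 3 NASH-model libraries. Cyp7b1 over Cyp7a1 was 11.9 in control and 0.226, 0.21 and 0.295 in the others. Cyp27a1 stayed above Cyp7a1 in all 4 libraries, by 21.7-fold in control, 2.46-fold in NASH, 1.96-fold with the low dose and 1.69-fold with the high dose.

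**Figure D2:**
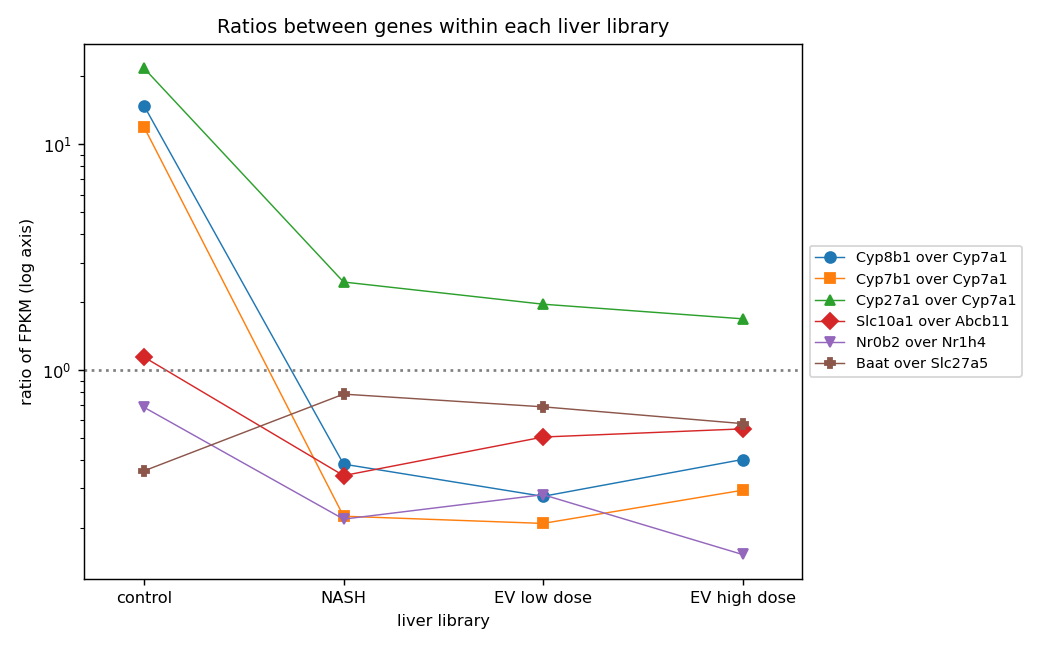
Ratios of FPKM between pairs of the 10 genes within each liver library, on a log axis, 1 marker per library and lines joining the same ratio. Cyp8b1 over Cyp7a1 was 14.8 in control and below 1 in the other 3 libraries, and Slc10a1 over Abcb11 was 1.14 in control and 0.342 in NASH.

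The conjugation enzymes differed in size. Slc27a5 (NCBI gene 26459, chromosome 7, 12988346 to 12998192) was at 331 FPKM in control, 102 in NASH, 152 with the low EV dose and 188 with the high dose. Its NASH over control ratio was -2.24 (-1.68 as deposited), and control lay 3.23-fold above NASH. Both EV libraries stood between NASH and control, at log2 0.70 and 1.005 over NASH (0.57 and 0.87 as deposited).

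Baat (NCBI gene 12012, chromosome 4, 49489416 to 49507915) was at 119 FPKM in control, 80.2 in NASH, 105 with the low EV dose and 109 with the high dose. NASH was the lowest library, at log2 -1.11 against control (-0.56 as deposited), and the EV libraries stood at 0.52 and 0.57 over NASH. Baat over Slc27a5 within a library was 0.359 in control, 0.784 in NASH, 0.689 with the low dose and 0.581 with the high dose, so the 2 enzymes' transcripts were nearest to each other in NASH.

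Of the carriers, the uptake gene differed more than the export gene. Slc10a1 (NCBI gene 20493, chromosome 12, 80953185 to 80968705) was at 165 FPKM in control, 33.8 in NASH, 47.9 with the low EV dose and 51.5 with the high dose. Control lay 4.86-fold above NASH (log2 -2.80, rank 85 from the lowest), and both EV libraries lay above NASH, at log2 0.63 and 0.73.

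Abcb11 (NCBI gene 27413, chromosome 2, 69238282 to 69342616) was at 144 FPKM in control and at 98.9, 94.5 and 93.6 in the NASH, low dose and high dose livers. Control was the high library, 1.45-fold above NASH, and the other 3 were close together. Its NASH over control ratio was -1.09, and -0.54 as deposited. Slc10a1 over Abcb11 was 1.14 in control, 0.342 in NASH, 0.507 with the low dose and 0.55 with the high dose.

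The receptor gene and the gene of its target differed in pattern. Nr1h4 (NCBI gene 20186, chromosome 10, 89454234 to 89533645) was at 45.6 FPKM in control, 52.4 in NASH, 63.3 with the low EV dose and 66.8 with the high dose. Its NASH over control ratio was -0.35 relative to the median gene and 0.20 as deposited, so its direction depends on the centring. Against NASH it stood at 0.41 with the low dose and 0.48 with the high dose.

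Nr0b2 (NCBI gene 23957, chromosome 4, 133553376 to 133556686) was at 31.2 FPKM in control, 11.5 in NASH, 17.8 with the low EV dose and 10.2 with the high dose. Control was 2.72-fold above NASH (log2 -1.92, and -1.37 as deposited). The doses differed here: the low dose stood at 0.73 and the high dose at -0.02 over NASH, and high over low dose was -0.75, rank 61 from the lowest of all genes in that comparison. Nr0b2 over Nr1h4 within a library was 0.686 in control, 0.219 in NASH, 0.281 with the low dose and 0.153 with the high dose.

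With the low EV dose none of the 10 was 2-fold apart from NASH, where 0.443% of all genes were higher and 0.225% lower (0.311% and 0.381% as deposited). With the high dose 2 were higher, Cyp7b1 and Slc27a5 (0.816% of all genes were higher), and none was lower (0.373%), but as deposited neither of them reached 2-fold (0.552% of all genes higher, 0.723% lower). The median of the 10 was 0.41 with the low dose and 0.65 with the high dose, or 0.28 and 0.52 as deposited, where the median of all genes was -0.14 and -0.13. Both comparisons use the same NASH library, so a low or high value in it would move both. Between the doses none of the 10 was 2-fold apart, where 0.303% of genes were higher and 0.163% lower with the high dose.

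The EV livers were also set against the same control library that the NASH liver was. Cyp7a1 was 2-fold higher, where 6.5% (low dose) and 6.28% (high dose) of all genes were, and Cyp7b1, Cyp8b1, Slc10a1, Nr0b2 and Slc27a5 were lower, where 5.69% and 5.14% were. Cyp8b1 stood at -3.18 with the low dose and -2.33 with the high dose, and Cyp7b1 at -3.24 and -2.46. As deposited 4 were lower at each dose, without Nr0b2 at the low dose (2.67% of all genes lower, 13.6% higher) and without Slc27a5 at the high dose (2.56% lower, 13.5% higher). Slc27a5 as deposited stood at -1.12 with the low dose and at -0.81 with the high dose.

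**Figure D3:**
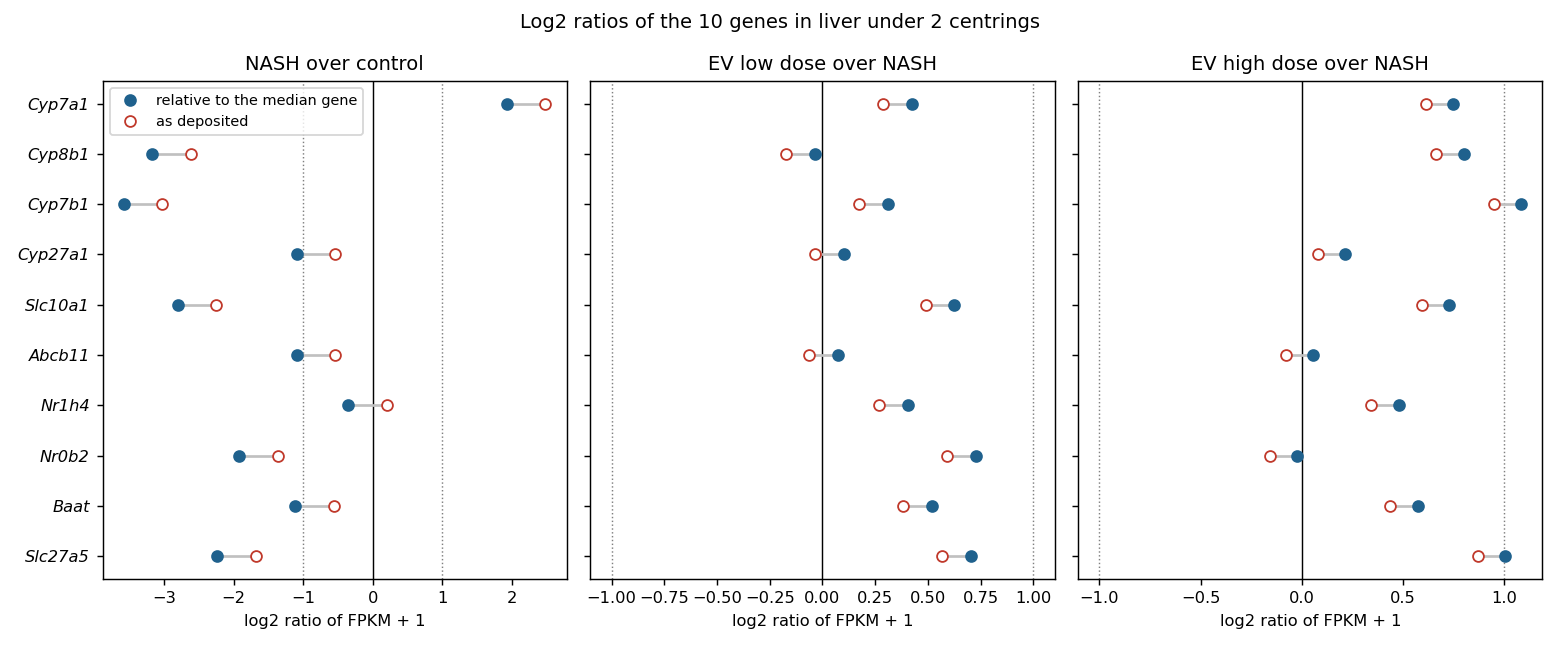
Log2 ratios of FPKM + 1 of the 10 genes in liver for NASH over control and each EV dose over NASH, relative to the median gene (filled) and as deposited (open), with dotted lines at 2-fold and 1 library per group. Cyp7a1 lies to the right (1.93) and Cyp7b1 farthest left (-3.58) in NASH over control, and Cyp27a1, Abcb11 and Baat cross the 2-fold line between the centrings.

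Further enzymes of bile acid synthesis were mostly nearer to 0 than the 10 genes. Of 16 listed, 14 were kept, and 3 were 2-fold lower (none as deposited) and 1 higher (2 as deposited) in NASH than in control, with a median of -0.39 relative and 0.17 as deposited. Among all genes 7.66% were lower and 7.21% higher (3.23% and 20.5% as deposited). The lower ones were Hsd3b7 (343 against 198 FPKM in NASH, log2 -1.34), which acts after the 7-alpha-hydroxylases, Akr1c6 (955 against 589, log2 -1.25) and Cyp2c70 (229 against 128, log2 -1.38), which makes muricholic acids in mice. Akr1d1, the steroid 5-beta-reductase, was at 54.6 and 40.03 (log2 -0.99). Cyp39a1, an oxysterol 7-alpha-hydroxylase, was higher, at 5.88 FPKM in control and 21.3, 19.1 and 15.4 in the NASH, low dose and high dose livers (log2 1.14).

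Of 18 other bile carriers 17 were kept, of which 4 were 2-fold higher and 2 lower in NASH (5 and 2 as deposited), with a median of 0.19 (0.74 as deposited). All genes stood at 7.21% higher and 7.66% lower (20.5% and 3.23% as deposited). The uptake carrier gene Slco1a1, also on the male-biased list, was at 158 FPKM in control, 1.86 in NASH, 6.29 with the low EV dose and 22.3 with the high dose (log2 of NASH over control -6.34). Slc22a7, an organic anion carrier, was at 6.03 and 1.78 (log2 -1.89), and Slco2b1 at 28.4 and 20.6 (log2 -0.99). In the other direction Abcb4, which moves phospholipid into bile, was at 38.6 FPKM in control and 149, 130 and 125 in the other 3 (log2 1.37), and Abcb1a, an efflux pump, at 0.329 and 6.02 (log2 1.85).

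Of 26 listed regulators of the pathway 23 were kept, and none was 2-fold higher (3 as deposited) and 1 lower (0 as deposited) in NASH, with a median of -0.16 relative and 0.39 as deposited. The shares of all genes were 7.21% higher and 7.66% lower (20.5% and 3.23% as deposited). Fgf15, the gut hormone gene that represses Cyp7a1, was listed at 0 in all 4 liver libraries. Its receptor gene Fgfr4 was at 3.65 FPKM in control, 3.85 in NASH, 2.12 with the low EV dose and 1.88 with the high dose, and the coreceptor gene Klb, the 1 lower, at 13.2, 8.69, 8.63 and 7.95. Nr5a2 (LRH-1) lay between 11.2 and 13.7 FPKM and Hnf4a between 48.4 and 69.1. Rxra, the partner of FXR, was at 36.7 in control, 63.2 in NASH, 43.1 with the low dose and 37.7 with the high dose. The xenobiotic and bile acid sensor gene Nr1i2 (PXR) stood at 0.57, Cebpb at 0.86 and Foxa2 at -0.56 in NASH over control.

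Among 8 kept genes of bile acid detoxification 3 were lower (1 as deposited) and 1 higher. For this list and the next, 7.66% of all genes were lower in NASH and 7.21% higher (3.23% and 20.5% as deposited). Sult2a8, which encodes a bile acid sulfotransferase of male mouse liver, was at 373 FPKM in control and 14.6, 39.04 and 77.8 in the NASH, low dose and high dose livers (log2 of NASH over control -5.14). Gsta1, a glutathione transferase, was at 2.71 in control and 82.5 in NASH (log2 3.94). Cyp3a25 stood at -1.55, Ugt2b5 at -1.35 and Cyp3a11 at -0.77. Of 15 kept genes that supply cholesterol 4 were lower in NASH and none higher (4 and 3 as deposited), the lower ones including Cyp51 (log2 -2.44), Insig1 (-2.10) and Stard4 (-1.72), and Lcat stood at -0.96.

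**Figure D4:**
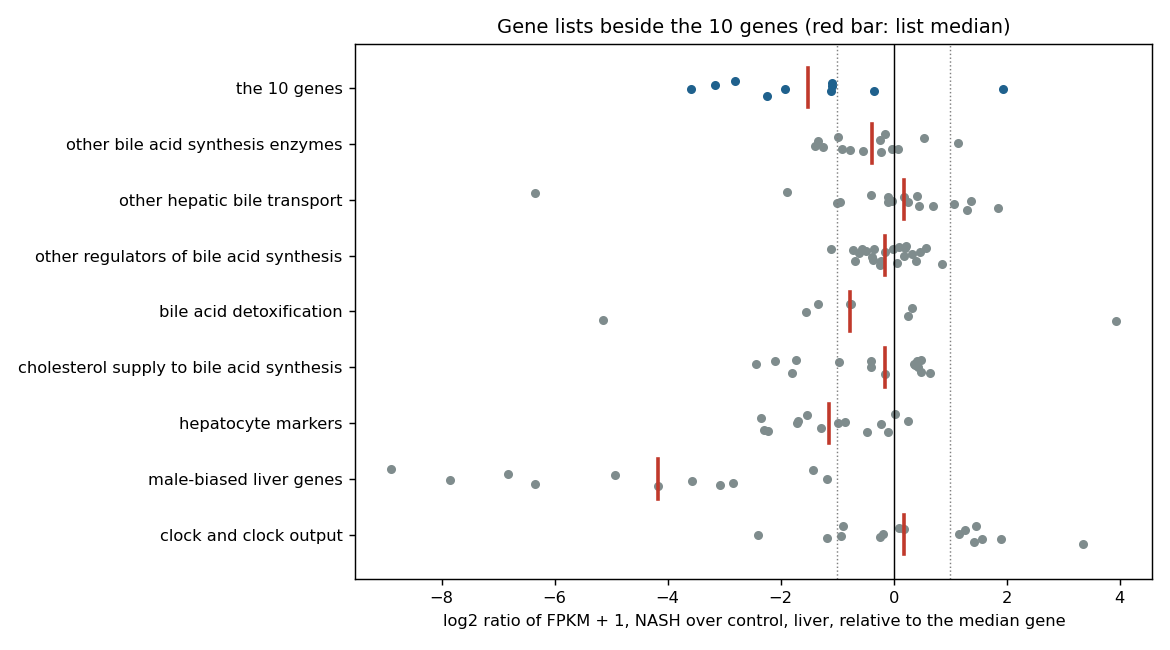
Log2 ratios of NASH over control in liver, relative to the median gene, for the 10 genes and 8 lists, 1 point per gene that reached 1 FPKM in a liver library and a red bar at each list median (dotted lines at 2-fold). The median of the 10 genes was -1.52, that of hepatocyte markers -1.14 and that of other synthesis enzymes -0.39.

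Marker genes of liver cell types were read beside the 10 genes. Of 14 hepatocyte markers 7 were 2-fold lower in NASH (5 as deposited) and none higher, with a median of -1.14 (-0.59 as deposited), led by Serpina1a (-2.34), Apoa2 (-2.29) and Ttr (-2.23), and none was at 0. Their summed level was 61532 FPKM in control and between 43743 and 44675 in the other 3 livers, and as a share of the summed FPKM of all genes it was 6.03% in control, 5.65% in NASH, 5.06% with the low dose and 5.27% with the high dose. Macrophage markers were higher in 13 of 14 (median 1.84, or 2.39 as deposited), with sums of 157 FPKM in control and between 746 and 830.1 in the other 3. Stellate cell markers were higher in 7 of 12 (10 as deposited), with a median of 1.19 (1.74 as deposited) and sums of 97.2 against 345 to 389.8. Cholangiocyte markers were higher in 2 of 6 kept of 12 (3 as deposited), with a median of 0.30 (0.85 as deposited). Their sums were 19.5 against 61.8 to 78.9, and Sctr was listed at 0 in each liver library. For the marker lists here, 7.66% of all genes were 2-fold lower in NASH and 7.21% higher (3.23% and 20.5% as deposited). The part of cell composition in the levels of the 10 genes was not tested.

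Cyp7a1 is known as a gene of pericentral hepatocytes. Of 12 pericentral markers 2 were 2-fold lower in NASH (none as deposited) and of 12 periportal markers 5 were lower and 1 higher (3 and 2 as deposited), with medians of -0.08 and -0.92 (0.47 and -0.37 as deposited). Acute phase genes were higher in 8 of 14 and lower in 1 (9 and 0 as deposited), with Lcn2 at 7.27. Set beside every list in this paragraph are the shares of all genes, 7.66% lower and 7.21% higher in NASH (3.23% and 20.5% as deposited). Female-biased genes were higher in 4 of 6 kept. The part of these in the levels of the 10 genes was not tested.

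The genes nearest in liver pattern were taken from 7284 others that reached 5 FPKM, by the distance between log2 profiles over the 4 liver libraries, each centred on its own mean. For Cyp7a1 they were Cyp2a21-ps (distance 0.2), Cyp2a5 (0.25) and Spink1 (0.25), and Cyp2a5 was at 120 FPKM in control and 746, 1024 and 1062 in the NASH, low dose and high dose livers. Cyp2a21-ps is a pseudogene close in sequence to Cyp2a5, so its level apart from Cyp2a5 is uncertain. Spink1 was listed at 0 in control and at 4.65, 6.05 and 6.12 in the NASH, low dose and high dose livers. Its distance therefore depends on the 1 FPKM added before the log. For Cyp8b1 they were Slc22a28 (0.3), Cyp7b1 (0.31) and Cyp4a12b (0.32), and for Cyp7b1 they were Cyp4a12b (0.16), Slc22a28 (0.28) and Cyp8b1 (0.31). Cyp4a12b is close to Cyp4a12a and may share reads with it. Slc10a1 lay nearest to Egfr (0.11), the epidermal growth factor receptor gene, at 137 FPKM in control and 29.8, 38.8 and 45.9 in the other 3, then to Cyp4f14 (0.18) and Serpina1d (0.18). Slc27a5 lay nearest to Aadac (0.044), Clec2h (0.069) and Cyp2j5 (0.13). Nr0b2 lay nearest to Acacb (0.32), the tRNA gene n-TDgtc14 (0.36) and Gltpd2 (0.4).

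In colon 3 of the 10 genes reached 1 FPKM. Nr1h4 was at 27.6 FPKM in control, 49.5 in NASH, 41.4 with the low EV dose and 32.6 with the high dose, so control was lowest and NASH highest (log2 0.82 as deposited for NASH over control, rank 629 from the highest of 15245). Cyp27a1 was at 10.7, 20.03, 19.3 and 15.8 in the same order (log2 0.84, rank 583 from the highest). Cyp7b1 lay between 0.803 and 1.04. None of the 3 was 2-fold apart from control in NASH, where 2.43% of genes were higher and 1.97% lower as deposited.

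Baat was between 0.0951 and 0.762 FPKM in colon, and the other 6 at 0.0823 or less, all 6 listed at 0 in the colon control library. The hepatocyte marker Alb was at 0.782 FPKM in colon control and 4.60, 2.90 and 5.18 in the NASH, low dose and high dose colons. Nr0b2, the FXR target, was among these 6, beside Nr1h4 at 27.6 FPKM or more. Of 14 genes of bile acid handling in the gut, Nr1h4 and Nr0b2 among them, 10 were kept in colon, and 5 were at least 2-fold higher and none lower in NASH than in control (median 0.95 as deposited). Over all genes kept in colon 2.43% were higher and 1.97% lower as deposited. Of the 5, 4 were Slc10a2, the apical uptake carrier, at 2.49 FPKM in control and 28.1 in NASH, the binding protein gene Fabp6 at 2.84 and 22.6, the export subunit gene Slc51a at 2.11 and 36.9, and Slc51b, its partner, at 15.2 and 33.4. The fifth was Vdr, the vitamin D receptor gene, at 26.9 and 62.5, which like the next gene lies outside the rule for naming and was chosen after its values were seen. The export pump gene Abcc3 was at 33.1 FPKM in control and 38.6 in NASH. Of 12 ileum epithelium markers, Slc10a2 and Fabp6 among them, 8 were kept in colon. Of these 4 were 2-fold higher in NASH and none lower (median 1.12 as deposited). The part of the sampled gut region and of clock phase in the levels of these gut genes was not tested. With the high EV dose Slc10a2, Fabp6, Slc51a and Slc51b stood at 11.2, 4.02, 7.88 and 24.8, and with the low dose at 19.9, 21.6, 23.8 and 43.2. The bile acid receptor gene Gpbar1 stayed at 0.199 FPKM or less and Fgf15 was listed at 0 in each colon library.

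**Figure D5:**
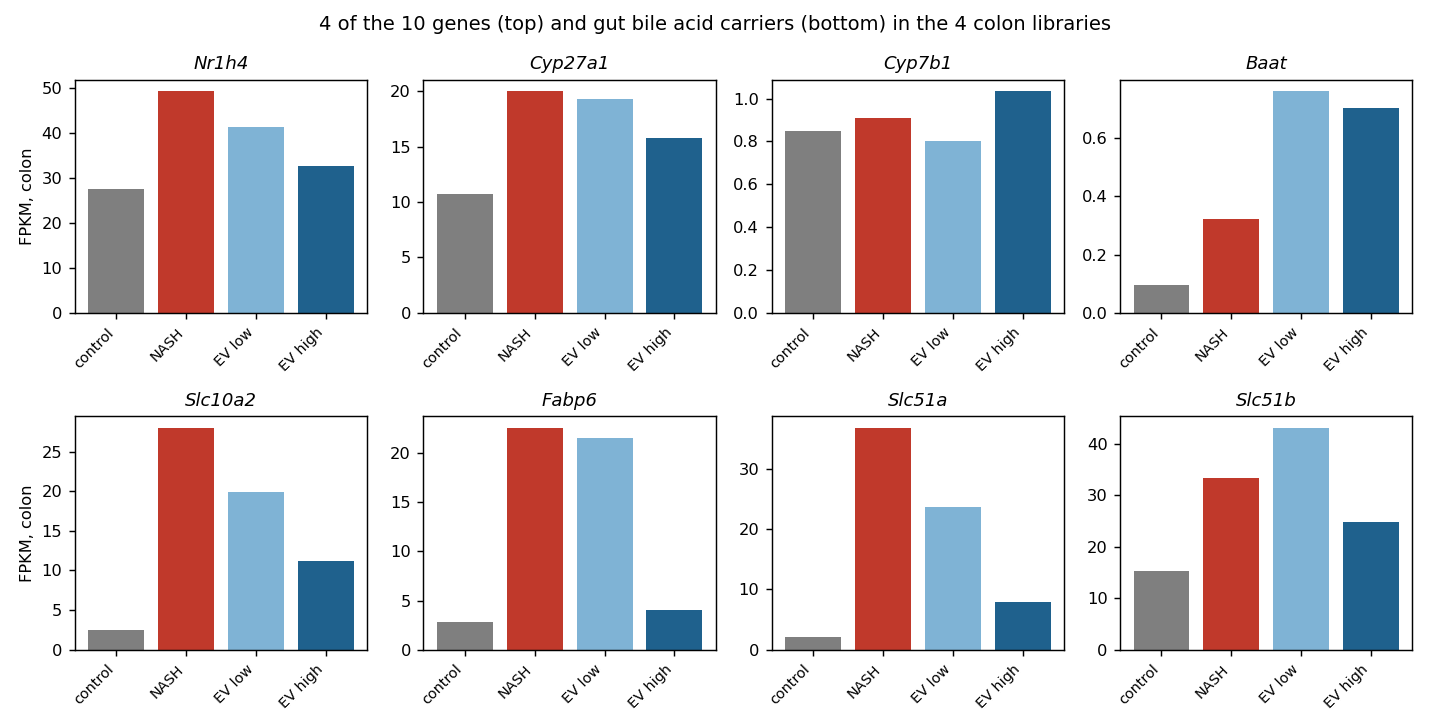
FPKM in each of the 4 colon libraries, 1 bar per library and a separate axis from 0 for each gene, for 4 of the 10 genes (top) and 4 gut bile acid carriers or binding proteins (bottom). Nr1h4 was highest in NASH (49.5) and lowest in control (27.6), and Slc10a2 ran from 2.49 in control to 28.1 in NASH.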

How the data were processed

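RNA of mouse liver and colon was measured in 8 libraries, 1 per group and tissue, grouped by the sample titles. The authors deposited 1 table of FPKM with 45777 NCBI gene identifiers, of which 98 had no symbol in the RefSeq table of GRCm38.p6. Total RNA came from TRIzol and RNeasy Plus extraction, and the library kit was a stranded TruSeq total RNA kit, per the labels' protocols. HISAT2, StringTie, Trimmomatic 0.38 and the build mm10 are listed, without roles, in the submitters' processing notes. Read depth is unknown.

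Ratios were formed on log2(FPKM + 1), a scale on which those of low genes are understated. Genes reaching 1 FPKM in at least 1 library of a tissue were kept. Liver ratios were set relative to the median kept gene and colon ratios are as deposited. No test was run, because each group held 1 library, and 2-fold is a size, not a test. Beside the 10 genes, lists of pathway, regulator and marker genes were described. Named from each list were up to 5 genes of largest ratio at 5 FPKM or more in the higher of control and NASH, with a few regulators and gut genes named whatever their value. From marker lists only examples are printed, and 1 gene that the rule names is not reported here. The members and lists were chosen with earlier results of these data known. Alternatives were other pseudocounts (0.1 and 5), scalings, filters, a fold of 1.5 and control as the reference. The code was tested on simulated libraries. Python 3.11.15 was used with numpy 2.4.6 and pandas 2.3.3.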

Additional observations from a re-analysis of the deposited data

Results flagged for a closer look

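Directions in the 2 tissues were compared for members that reached 1 FPKM in both, taking those at least 0.2 log2 units from 0 on opposite sides with and without centring. The colon values here are as deposited. Cyp27a1, the mitochondrial sterol hydroxylase gene, was lower in NASH than in control in liver (-1.09, or -0.54 as deposited, from 207 to 142 FPKM). It was higher in colon (0.84, from 10.7 to 20.03 FPKM). With libraries scaled to the same sum its liver ratio was -0.15, inside 0.2. Nr1h4, the FXR gene, was higher with the high EV dose than in NASH in liver (0.48, or 0.34 as deposited, from 52.4 to 66.8 FPKM). It was lower in colon (-0.59, from 49.5 to 32.6 FPKM). Each value compares 1 library with 1, so the difference between tissues was not tested.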

How the results depend on the processing

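For NASH over control, the 8 members counted as lower became 5 with a pseudocount of 5 FPKM, as deposited, with libraries scaled to the same sum, relative to genes of 20 FPKM or more, and with no filter on low values. The median of -1.52 became -0.96 as deposited and with no filter, and -0.59 with the same sum. With no filter the ratios equalled those as deposited in each liver comparison, so it repeats that setting. The members that crossed were Cyp27a1, Abcb11 and Baat, each under 5 of 9 alternatives with the repeat counted. Their ratios ran from -1.32 (Baat) to -0.15 (Abcb11). Cyp7a1 stayed between 1.76 and 2.84, Cyp7b1 between -3.82 and -2.65, Cyp8b1 between -3.37 and -2.24, Slc10a1 between -3.004 and -1.87, Slc27a5 between -2.45 and -1.30 and Nr0b2 between -2.14 and -1.0003. Nr1h4 ran from -0.55 to 0.58.

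For the high EV dose over NASH, the 2 members counted as higher became 0 with a pseudocount of 5 FPKM, as deposited, with the same sum, relative to genes of 20 FPKM or more and with no filter, and 1 with a filter at 5 FPKM. At a fold of 1.5 there were 5, and for the low dose 3 in place of 0. Between the doses a fold of 1.5 gave 2 higher and 1 lower in place of 0 and 0. With control as the reference, the low dose had 1 higher and 5 lower (median -1.08 in place of 0.41) and the high dose 1 and 5 (median -1.10 in place of 0.65). Over the EV comparisons with NASH, the signs of Cyp8b1 (low dose), Nr0b2 (high dose), Cyp27a1 and Abcb11 (both doses) changed under 1 or more alternatives. The fold does not enter the medians. Leaving out a replicate was not possible, and no paired analysis was possible because each group held 1 library.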

Other observations

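Among export and reuptake genes that lay outside the rule for naming and were chosen after their values were seen, Abcc4, a basolateral efflux pump of hepatocytes, was at 0.462 FPKM in the control liver, 4.28 in NASH, 3.21 with the low EV dose and 2.49 with the high dose. Slc51b, a subunit of the basolateral bile acid exporter, was at 0.66, 4.09, 4.81 and 3.57 in the same order, while Slc51a, the partner subunit, was listed at 0 in all 4 livers. Slc10a2, the apical uptake carrier of ileum and bile ducts, was at 0.949, 4.41, 4.31 and 4.56. Control was the low library for each of Abcc4, Slc51b and Slc10a2, and these levels are near the minimum of 1 FPKM. Abcc2, the canalicular pump for conjugated anions, was at 67.7 in control and 163, 143 and 141 in the NASH, low dose and high dose livers.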
